A study of Mus musculus with 12 samples.

Results

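Loss of Tespa1 was examined in LSKs at day 9 after 5-FU by comparing the 3 RNA-seq libraries of Tespa1-/- mice with the 3 of Tespa1+/+ mice, 6 of the 12 libraries of the series, chosen by their genotype and treatment labels. LSKs are the Lin- Sca-1+ c-Kit+ fraction of bone marrow (BM), and 5-FU is an antimetabolite that kills dividing cells. The mice were male and 8 to 10 weeks old per the study's methods, the labels call the wild-type animals littermates while the methods name separately obtained C57BL/6 mice, and all 6 libraries are from animals given 5-FU. The other 6 libraries are from untreated LSKs of both genotypes and serve only as a reference. The allele is a constitutive one, carried by every cell of the animal and not by HSCs alone, and the LSK gate holds multipotent progenitors as well as HSCs. In such bulk samples, fewer cells of a type and less RNA per cell cannot be told apart. The labels do not say whether a library came from 1 mouse or from several.

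LSKs give rise to all blood lineages, and the gate combines absence of lineage antigens with surface Sca-1 (encoded by Ly6a) and c-Kit. HSCs are mostly quiescent, and 5-FU removes cycling progenitors, after which the surviving HSCs divide and rebuild the BM. Type I interferon can drive HSCs into division, and stem and progenitor cells keep a low basal expression of interferon-stimulated genes.

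Levels of genes are given in CPM (reads of a gene over the TMM-adjusted library size). Library totals ran from 22118154 to 27445161 counted reads. Over these totals, without TMM adjustment, the limit of 3 counts taken as detectable equals 0.109 to 0.136 CPM. It covers counting error only. Genotypes were compared with edgeR's quasi-likelihood test, with p-values adjusted over all genes by the Benjamini-Hochberg method; every adjusted p below comes from it, and higher, lower, rose and fell mean an adjusted p below 0.05. Log2 fold changes are Tespa1-/- relative to Tespa1+/+, with their standard error (SE). Of 17239 genes tested, 1265 (7.34%) were higher and 996 (5.78%) lower in Tespa1-/- LSKs, and the median log2 fold change over all of them was -0.01. In 5710 genes (33.1%) the 3 libraries of one genotype all lay above the 3 of the other. Tespa1 itself was at 47.8, 55.7 and 58.1 CPM in the Tespa1+/+ libraries and at 21, 19.9 and 17.5 CPM in the Tespa1-/- ones, a fall by 1.47 on the log2 scale (SE 0.12, adjusted p = 9.4e-05). Its reads were reduced and not absent in the Tespa1-/- libraries.

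**Figure D1:**
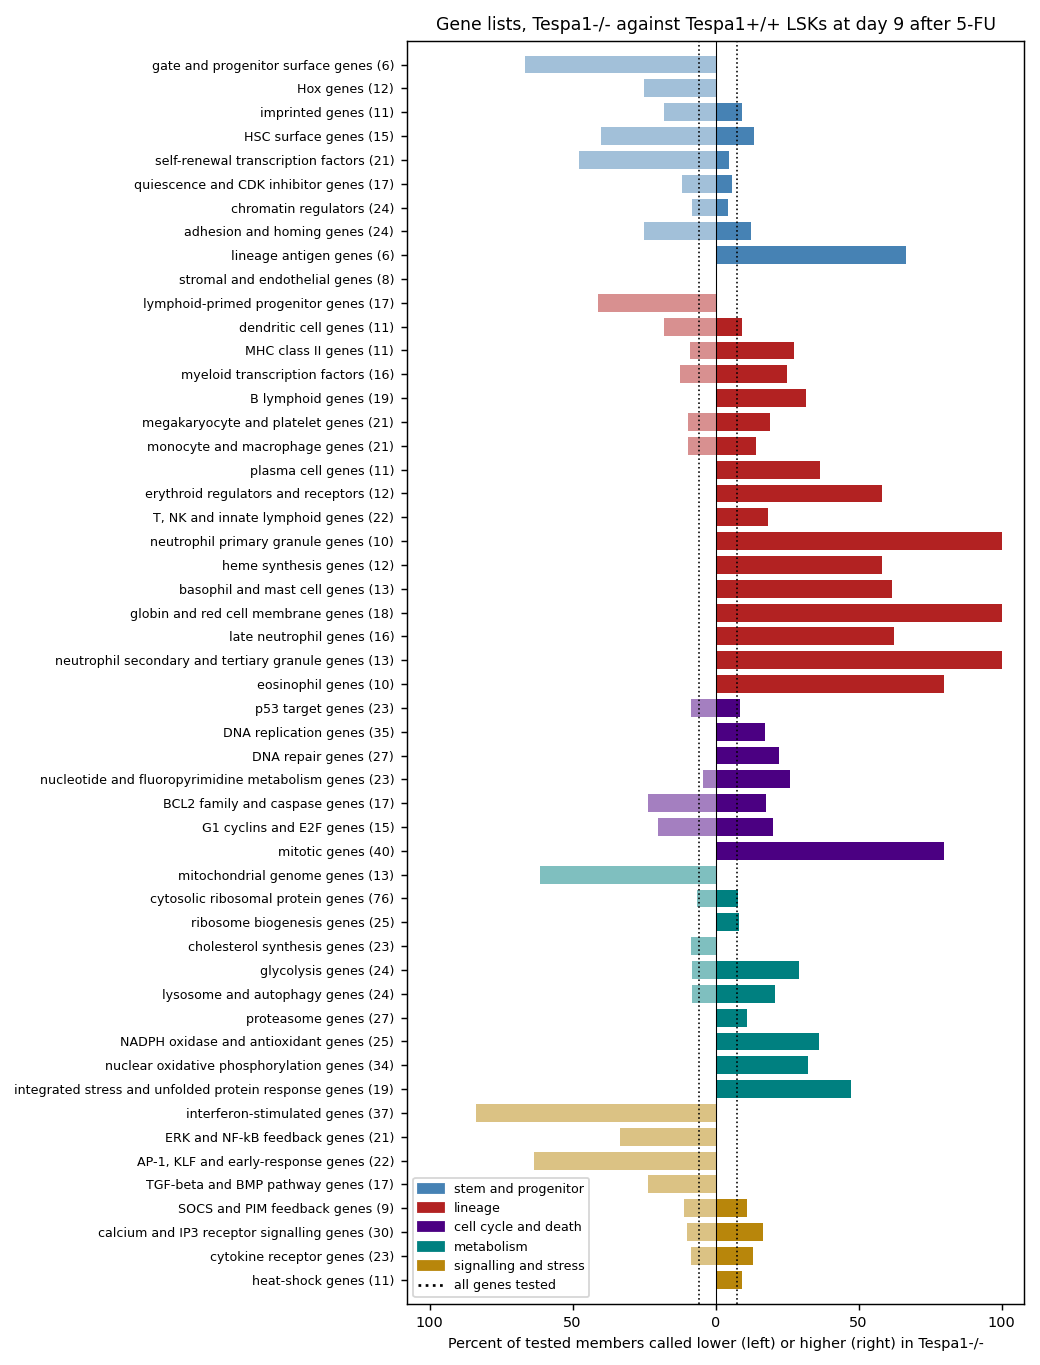
Share of the tested members of 52 gene lists that were lower (bars to the left) or higher (bars to the right) in Tespa1-/- LSKs after 5-FU, in percent, with the number of tested members in brackets. Dotted lines mark the shares over all genes tested, 5.78% lower and 7.34% higher. Granule, globin, eosinophil and mitotic genes extend to the right, and gate and progenitor surface, mitochondrial genome, early-response and interferon-stimulated genes to the left.

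Neutrophil granule genes were higher in Tespa1-/- LSKs across the stages of granule formation. All 10 genes of the primary (azurophil) granule list, which myeloid progenitors already express, rose, with a median log2 fold change of 1.02. Besides genes of granule proteins the list holds Ms4a3, Calr, Nkg7, Hk3 and Igsf6, so its count is not one of granule genes alone. Of the 10, 5 also rose in untreated LSKs, where the median was 0.41, and the interaction with treatment was called for 6, each with the larger effect after 5-FU. Mpo, the myeloperoxidase of these granules, was at 2272, 2224 and 2072 CPM in Tespa1+/+ and 3757, 3391 and 3784 CPM in Tespa1-/- libraries (log2 fold change 0.73, SE 0.05, adjusted p = 1.5e-05). Elane, which encodes neutrophil elastase, went from 146, 147 and 143 CPM to 467, 499 and 463 CPM (log2 fold change 1.71, SE 0.05, adjusted p = 1.3e-07). Both genes were well expressed in either genotype, and the groups did not overlap. Genes of the secondary and tertiary granules, which are made later in neutrophil maturation, were higher too. All 13 tested of 14 rose, with a median of 6.91, and 5 of them did not exceed 3 counts in any Tespa1+/+ library. Ltf (lactotransferrin) was at 0.789, 1.13 and 0.251 CPM in Tespa1+/+ and 144, 160 and 155 CPM in Tespa1-/- (log2 fold change 7.70, SE 0.27, adjusted p = 3.5e-07). Ngp, a neutrophil granule protein, was at 2.57, 0.156 and 1.09 CPM against 265, 250 and 243 CPM. Chil3, a chitinase-like protein of neutrophils and macrophages, had 0, 3 and 0 counts in Tespa1+/+ and 56.2, 55.6 and 48.9 CPM in Tespa1-/-, at least 446-fold higher with the limit taken over the group.

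Summed over the list, the secondary and tertiary granule genes took 78.8 to 91.8 CPM in Tespa1+/+ libraries and 936.4 to 975.4 CPM in Tespa1-/- ones. Genes of late neutrophils rose in 10 of 16, with a median of 3.64 (3.34 with genes near 0 in Tespa1+/+ placed at their lower bound). In this list 2 had a negative log2 fold change, among them Csf3r (values below), and 1 was lower by DESeq2 and 1 at an unadjusted p below 0.05. Retnlg and Wfdc21, both of circulating neutrophils, had no count in Tespa1+/+ and were at least 89-fold and 83-fold higher. Ly6g, the neutrophil antigen that the Gr-1 antibody in part detects, was at 1.58, 0.586 and 1.6 CPM in Tespa1-/- and 0, 0 and 0.251 CPM in Tespa1+/+ and did not pass the test (adjusted p = 0.072). Without the first Tespa1-/- library, 6 late neutrophil genes passed. Of the 16 myeloid transcription factors, 4 were higher and 2 lower, against 7.34% and 5.78% of all genes. Cebpe, the factor of terminal granulocyte differentiation, was at 12.6, 10 and 11.6 CPM in Tespa1-/- against 0, 1.29 and 0.543 CPM (log2 fold change 4.21, SE 0.74, adjusted p = 0.0054). Gfi1, a repressor needed for neutrophil development and HSC maintenance, rose by 1.27 (SE 0.21, adjusted p = 0.0041) and Cebpa by 0.67 (SE 0.14, adjusted p = 0.011), while Spi1 had a log2 fold change of 0.20 (adjusted p = 0.095).

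Eosinophil genes were higher in Tespa1-/- LSKs. Prg2, the major basic protein of eosinophil granules, had 14, 0 and 0 counts in the Tespa1+/+ libraries and 392, 388 and 404 CPM in the Tespa1-/- ones (log2 fold change 11.01, SE 0.42, adjusted p = 5.8e-07). Epx, the eosinophil peroxidase, was at 0.158, 0.039 and 0 CPM in Tespa1+/+ and 188, 214 and 208 CPM in Tespa1-/-. All 3 Tespa1-/- libraries were alike for both genes. Per length of transcript, Prg2 reached a mean of 465.8 FPKM in Tespa1-/- LSKs, where Kit was at 26.4 and Mpo at 748.3 FPKM. Of 10 eosinophil genes 8 rose, and Il5ra and Ccr3, both named after their values were seen, did not pass. The median of 11.33 rests on 6 genes near 0 in Tespa1+/+ and is 7.12 with these at their bound. The eosinophil ribonuclease genes Ear1, Ear2 and Ear6 are near-identical copies, so their separate values are uncertain. The summed eosinophil list went from 5.41 to 7.30 CPM in Tespa1+/+ libraries to 685 to 719.8 CPM in Tespa1-/- ones.

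Basophil and mast cell genes also rose, in 8 of 13, with a median of 1.35. Mcpt8, a basophil protease, was at 4.1, 3.08 and 2.67 CPM in Tespa1+/+ and 15.8, 18.2 and 15.8 CPM in Tespa1-/- (log2 fold change 2.34, SE 0.22, adjusted p = 1.7e-04). Prss34, a second protease of basophils, went from 0.316, 0.702 and 0.752 CPM to 26.1, 26.9 and 26.3 CPM (log2 fold change 5.48, SE 0.28, adjusted p = 4.1e-06). Cpa3, the carboxypeptidase of mast cells and their progenitors, was already at 16.1, 16.6 and 18.2 CPM in Tespa1+/+ and rose by 0.88 (SE 0.13, adjusted p = 0.0024). Of 21 monocyte and macrophage genes, 3 were higher (6 by DESeq2 and 8 at an unadjusted p below 0.05) and 2 lower, against 7.34% and 5.78% of all genes. Without the first or the third Tespa1+/+ library 5 were higher, and 1 was lower in every fit without 1 library except that without the third Tespa1+/+ one. Csf1r, the receptor for M-CSF, had a log2 fold change of 0.31 (adjusted p = 0.14), whereas Vcam1, an adhesion molecule of macrophages and stroma, rose by 2.46 (SE 0.22, adjusted p = 1.2e-04) from 3.35, 3 and 2.92 CPM to 13.4, 18.7 and 19 CPM. Of 11 dendritic cell genes, 1 was higher (Siglech, of plasmacytoid dendritic cells) and 2 lower, against 7.34% and 5.78% of all genes. In this list 0 were lower (2 by DESeq2 with all libraries) without the first Tespa1+/+ or the first or the second Tespa1-/- library, and 2 were higher without the second Tespa1+/+ library. Of 8 tested stromal and endothelial genes, edgeR and DESeq2 each called 0, and an unadjusted p below 0.05 was reached by 1 higher and 1 lower gene; 1 was called higher without the first and 1 lower without the second Tespa1-/- library. The endothelial gene Cdh5 was at 3.43, 2.3 and 2.34 CPM in Tespa1+/+ and 1.55, 1.02 and 1.28 CPM in Tespa1-/- (adjusted p = 0.12).

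Erythroid genes were higher among regulators, heme enzymes, globins and membrane proteins. Of 12 regulators and receptors 7 rose, with a median of 0.68, among them Klf1, the erythroid Krüppel-like factor, from 11.2, 13.2 and 6.39 CPM to 32.8, 38 and 32.9 CPM (log2 fold change 1.75, SE 0.24, adjusted p = 0.0015). Gata1, the master factor of erythroid and megakaryocytic cells, rose by 0.97 (SE 0.19, adjusted p = 0.010), and Epor, the erythropoietin receptor, by 1.42 (SE 0.18, adjusted p = 8.7e-04), a call lost in a single fit over all 12 libraries (adjusted p = 0.077). Heme synthesis genes rose in 7 of 12, with a median of 1.06. Alas2, the erythroid enzyme of the first step, was at 0.276, 0.195 and 0 CPM in Tespa1+/+ and 13.4, 13.5 and 11 CPM in Tespa1-/-, and 12.9% of its exons overlap Apex2 on the other strand. All 18 globin and red cell membrane genes tested of 19 rose, with a median of 2.89. Slc4a1 (band 3) was at 0.0395, 0 and 0.835 CPM in Tespa1+/+ and 101, 89.4 and 93 CPM in Tespa1-/- (log2 fold change 8.37, SE 0.52, adjusted p = 1.4e-05). Hba-a1, an alpha-globin gene, was at 2.92, 5.19 and 1.09 CPM against 131, 139 and 125 CPM, and shares its coding sequence almost fully with Hba-a2, so that reads may be split between the pair. The 18 genes rose in every fit that left out 1 library.

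Megakaryocyte and platelet genes did not move as 1 group: 4 of 21 were higher and 2 lower, against 7.34% and 5.78% of all genes, with a median of 0.33. Itga2b (CD41) rose from 81.6, 89.2 and 84.2 CPM to 122, 126 and 128 CPM (log2 fold change 0.56, SE 0.07, adjusted p = 6.1e-04). Pf4 (platelet factor 4) was at 26.7, 29.1 and 19.6 CPM against 35.6, 36.4 and 36.3 CPM, without overlap, and missed the threshold (adjusted p = 0.053). Thbs1 (thrombospondin 1) rose by 1.14 (SE 0.16, adjusted p = 0.0019), whereas in untreated LSKs it was lower in Tespa1-/- (log2 fold change -2.43, SE 0.30, adjusted p = 0.0030).

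**Figure D2:**
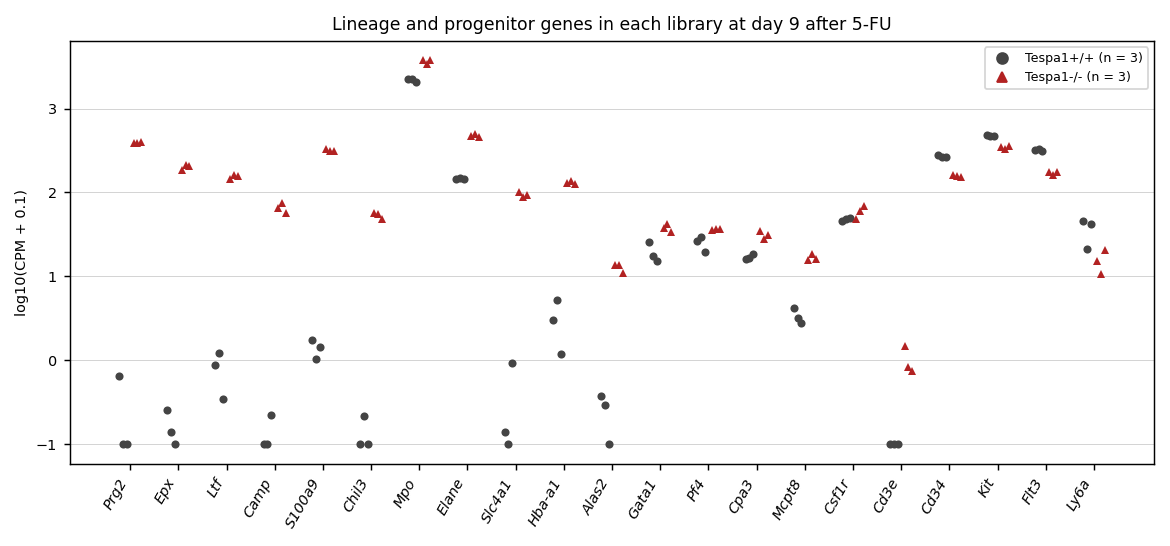
Level of 21 lineage and progenitor genes in each library at day 9 after 5-FU, as log10(CPM + 0.1); grey circles are the 3 Tespa1+/+ libraries and red triangles the 3 Tespa1-/- libraries. Prg2, Epx, Ltf and Slc4a1 lie near the floor in Tespa1+/+ and close together at 89.4 to 404 CPM in Tespa1-/-, whereas Kit, Flt3, Cd34 and Ly6a lie lower in Tespa1-/-.

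Genes of the antigens used to remove lineage-positive cells were higher as well, in 4 of 6. Itgam (CD11b) rose by 1.13 (SE 0.12, adjusted p = 2.7e-04), and 68.7% of its exons overlap the gene model Gm49368 on the same strand. Cd3e, of the T cell receptor complex, had no count in Tespa1+/+ and 1.4, 0.742 and 0.639 CPM in Tespa1-/-. The call of Cd3e was lost in 2 of the 6 fits without 1 library and with a block for the replicate number (adjusted p = 0.065). In the whole list 2 genes passed without the first or the second Tespa1-/- library.

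Of 6 genes of the gate (Kit and Ly6a) and of the surface markers that divide LSKs (Cd34, Flt3, Slamf1 and Cd48), 4 fell, with a median of -0.62. Kit was at 480, 466 and 474 CPM in Tespa1+/+ and 352, 331 and 353 CPM in Tespa1-/- (log2 fold change -0.45, SE 0.04, adjusted p = 2.2e-04). Cd34, which marks progenitors, went from 279, 267 and 266 CPM to 162, 157 and 154 CPM (log2 fold change -0.78, SE 0.05, adjusted p = 2.3e-05). Flt3, the receptor that marks lymphoid-primed multipotent progenitors, went from 317, 328 and 309 CPM to 173, 163 and 177 CPM (log2 fold change -0.89, SE 0.05, adjusted p = 1.2e-05). The groups did not overlap for these 3 genes. Ly6a (Sca-1) was at 45.8, 21.4 and 42.1 CPM in Tespa1+/+ and 15.2, 10.7 and 20.4 CPM in Tespa1-/-, a fall by 1.24 (SE 0.31, adjusted p = 0.026) that lost significance in 4 of the 6 fits without 1 library, and one Tespa1+/+ library lay close to the highest Tespa1-/- one. Slamf1 (CD150) had a log2 fold change of 0.06 (SE 0.22, adjusted p = 0.90) and Cd48 one of -0.43 (SE 0.13, adjusted p = 0.056). Both Kit and Ly6a, the genes of the positive gate, were present in all 6 libraries.

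Genes of HSCs were lower in part, both surface genes and transcription factors. Among surface genes, 6 of 15 fell and 2 rose, with a median of -0.46. Fgd5, a guanine nucleotide exchange factor whose expression marks HSCs, was at 14.7, 18.3 and 18.9 CPM in Tespa1+/+ and 7.52, 6.6 and 7.53 CPM in Tespa1-/- (log2 fold change -1.26, SE 0.18, adjusted p = 0.0018). Robo4, a guidance receptor of HSCs and endothelium, fell by 1.16 (SE 0.22, adjusted p = 0.0078) and Cd27, a TNF receptor of early progenitors, by 0.75 (SE 0.08, adjusted p = 3.4e-04). The 2 genes that rose were Itga2b, above, and Thy1, whose call (log2 fold change 0.98, adjusted p = 0.042) was lost in all 6 fits without 1 library. Of 21 transcription factors of self-renewal, 10 fell and Gfi1, above, rose, with a median of -0.45. Hoxa9 was at 42.7, 41.8 and 32.8 CPM against 24.4, 31 and 25.3 CPM (log2 fold change -0.54, SE 0.15, adjusted p = 0.040). Of 12 tested Hox genes 3 fell, Hoxa5 by 1.33, Hoxa6 by 1.08 and Hoxa9, and without the second Tespa1+/+ or the first Tespa1-/- library 0 of the 12 were lower, and at most 2 without any other 1 (3 by DESeq2 and 5 at an unadjusted p below 0.05 with all libraries). With no filter on low counts, Hoxa9 and Hoxa6 also missed the threshold (adjusted p = 0.054 and 0.080), as they did with a block for the replicate number (adjusted p = 0.052 and 0.072).

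Lymphoid-primed progenitor genes fell in 7 of 17, with a median of -0.40. Besides Flt3 and Cd27, these included Dntt (the terminal transferase of early lymphoid cells, -0.35), Notch1 (-0.43) and Mef2c (-0.57), named after their values were seen, while Il7r was at 27.2, 22.7 and 23.6 CPM against 23.9, 21.9 and 14.4 CPM (adjusted p = 0.39). Chromatin regulators were called about as often as all genes (7.34% higher and 5.78% lower), with 1 of 24 higher and 2 lower (3 and 4 by DESeq2), and with 4 lower without the first Tespa1+/+ library. Tet1, a 5-methylcytosine dioxygenase, went from 82.6, 81.5 and 72.5 CPM to 49, 47.4 and 42.8 CPM (log2 fold change -0.76, SE 0.09, adjusted p = 7.5e-04). Its paralogue Tet2 had a log2 fold change of -0.03 (adjusted p = 0.84) and the methyltransferase gene Dnmt3a one of 0.02 (adjusted p = 0.94). Beside these falls, the summed lists of secondary and tertiary granule, eosinophil and globin genes rose from at most 91.8, 7.30 and 348.5 CPM in any Tespa1+/+ library to at least 936.4, 685 and 1318 CPM in every Tespa1-/- one, and their part in the lower share of HSC reads was not tested.

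**Figure D3:**
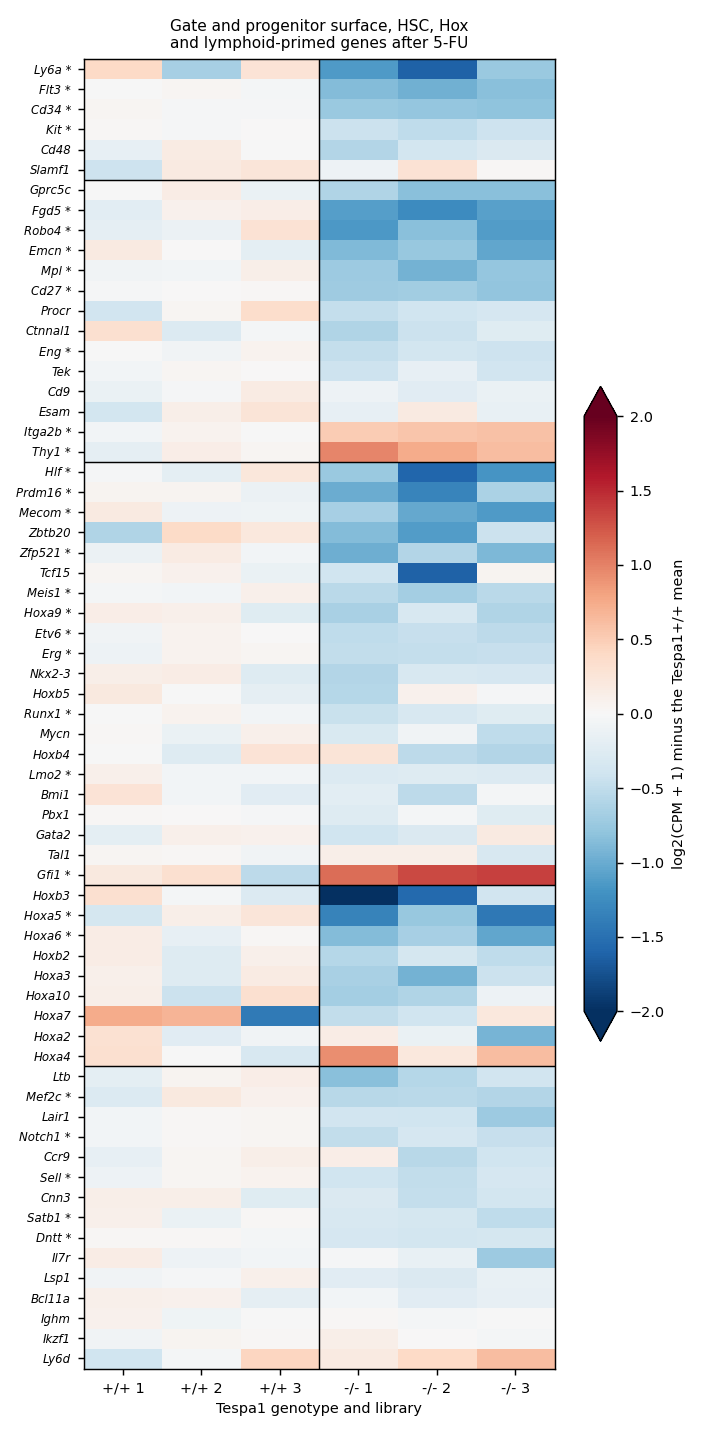
Expression of gate and progenitor surface, HSC surface, self-renewal, Hox and lymphoid-primed genes in each library after 5-FU, as log2(CPM + 1) minus the mean of the 3 Tespa1+/+ libraries (blue lower, red higher, colours saturate at 2). Rows are genes, split by list with black lines, a gene on several lists is drawn once, and an asterisk marks an adjusted p below 0.05. Most rows are blue in all 3 Tespa1-/- libraries, with Itga2b, Thy1 and Gfi1 red.

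Expression of interferon-stimulated genes was lower in Tespa1-/- LSKs. These genes are induced by factors that bind the interferon-stimulated response element (ISRE) of their promoters. Of 37 genes tested, 31 fell, against 5.78% of all genes, with a median of -0.82, and the summed level of the list was 3258 to 3359 CPM in Tespa1+/+ and 1877 to 1941 CPM in Tespa1-/- libraries. The summed secondary and tertiary granule, eosinophil and globin lists rose in the same libraries, from at most 91.8, 7.30 and 348.5 CPM to at least 936.4, 685 and 1318 CPM. Their part in the interferon difference was not tested. To show the element, RefSeq promoters (GRCm38.p6, from 250 bases before to 50 after the start) were searched on both strands for its core TTTCNNTTTC, and the core stands in capitals in the following stretches, each read along the strand of the gene; the Isg15 stretch has it on the other strand, as GAAANNGAAA. Only genes whose promoter held the core could be shown, so Mx1 and Iigp1, also among the 12 largest falls, have no stretch here. Ifit3 and Rsad2 are among the 12 largest falls, and Ifit1 and Isg15 were chosen after their values were seen.
Ifit3: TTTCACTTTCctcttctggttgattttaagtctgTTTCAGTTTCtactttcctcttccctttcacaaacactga
Rsad2: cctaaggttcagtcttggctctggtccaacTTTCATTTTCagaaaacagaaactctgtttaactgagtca
Ifit1: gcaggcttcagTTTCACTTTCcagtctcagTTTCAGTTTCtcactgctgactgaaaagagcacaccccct
Isg15: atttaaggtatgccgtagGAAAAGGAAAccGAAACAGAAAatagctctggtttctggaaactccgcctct

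The Ifit3 stretch lies at chr19:34583373-34583446 on the + strand, that of Rsad2 at chr12:26456533-26456602 on the - strand, that of Ifit1 at chr19:34640774-34640843 on the + strand and that of Isg15 at chr4:156200845-156200914 on the - strand. A promoter was found for 28 of the 37 genes, of which 15 (53.6%) held the core, and for 10510 of the genes tested, of which 3.38% held it. Among genes lower after 5-FU the core stood in 8.56% of 689 promoters and among genes higher in 3.35% of 865. A match is a description of letters and not of a bound site.

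Ifit3, an antiviral RNA-binding protein, was at 58.3, 55.9 and 56.5 CPM in Tespa1+/+ and 9.18, 11.3 and 11.2 CPM in Tespa1-/- libraries (log2 fold change -2.43, SE 0.12, adjusted p = 4.1e-06). Its neighbour Ifit3b fell by 2.34 (SE 0.31, adjusted p = 0.0012), and since the 2 genes are close copies their reads may be shared. Rsad2 (viperin), an antiviral enzyme, went from 58.9, 71.4 and 66.5 CPM to 17.5, 17 and 18.7 CPM (log2 fold change -1.89, SE 0.11, adjusted p = 1e-05). Every Tespa1-/- library lay far below every Tespa1+/+ one in these genes. Mx1, a dynamin-like GTPase, fell by 1.94 (SE 0.22, adjusted p = 5e-04) and Iigp1, an immunity-related GTPase, by 1.88 (SE 0.16, adjusted p = 8.9e-05). Irf7, the factor that amplifies the response, was at 114, 99.1 and 93.9 CPM against 56.4, 54.4 and 52.5 CPM (log2 fold change -0.91, SE 0.09, adjusted p = 2.2e-04).

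Other interferon-linked genes were among the 12 largest falls, which were Rprl3, Rnf26, Ifit3, Ifit3b, Tlr7, Sema3d, Mx1, Havcr2, Iigp1, Rsad2, Phf11d and Ifi213. Rprl3, the largest, is annotated as a ribozyme and not linked here to interferon. It was at 344, 307 and 315 CPM in Tespa1+/+ and 0.0368, 0.0781 and 0 CPM in Tespa1-/-. Its untreated means were 653 and 611 CPM, and how this RNA entered poly-A libraries was not tested. Tlr7, the endosomal sensor of single-stranded RNA, was at 21.2, 17.8 and 17.1 CPM in Tespa1+/+ and 2.58, 6.72 and 2.88 CPM in Tespa1-/- (log2 fold change -2.20, SE 0.35, adjusted p = 0.0031). Ifi213, of the interferon-inducible HIN-200 family, fell from 73.1, 64.1 and 69.1 CPM to 16, 23 and 20.4 CPM (SE 0.14 on the log2 scale, adjusted p = 5.6e-05). Havcr2, which encodes the receptor Tim-3, fell by 2.51 (SE 0.37, adjusted p = 0.0023), and Sema3d, a secreted semaphorin, by 2.22 (SE 0.35, adjusted p = 0.0032). Rnf26 is uncertain, with 7.22, 40.9 and 36.8 CPM in Tespa1+/+ and 4.83, 0.469 and 3.74 CPM in Tespa1-/-, since 56.6% of its exons overlap Gm49380 and its call was lost in 3 of the 6 fits without 1 library and in the single fit over all 12 libraries (adjusted p = 0.062). Of the 6 interferon-stimulated genes that did not fall, Cxcl10, Psmb8, Psmb9, Bst2, Oas1a and Ifi27l2a, named after their values were seen, none rose in edgeR or DESeq2 or at an unadjusted p below 0.05.

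In untreated LSKs 280 of 17055 genes (1.64%) were higher and 612 (3.59%) lower in Tespa1-/-, and there 3 interferon-stimulated genes fell, with a median of -0.07 over the list. Whether the genotype effect depended on treatment was tested over all 12 libraries, and this interaction was called for 936 of 18696 genes (5.01%), among them 24 of the 37 interferon-stimulated ones, 23 with a lower and 1 with a higher genotype effect after 5-FU. For Irf7 the effects differed by -0.81 (SE 0.11, adjusted p = 9.8e-04). Rsad2 was already lower in untreated Tespa1-/- LSKs (log2 fold change -1.30, SE 0.14, adjusted p = 0.0013), and its interaction missed the threshold (adjusted p = 0.067).

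**Figure D4:**
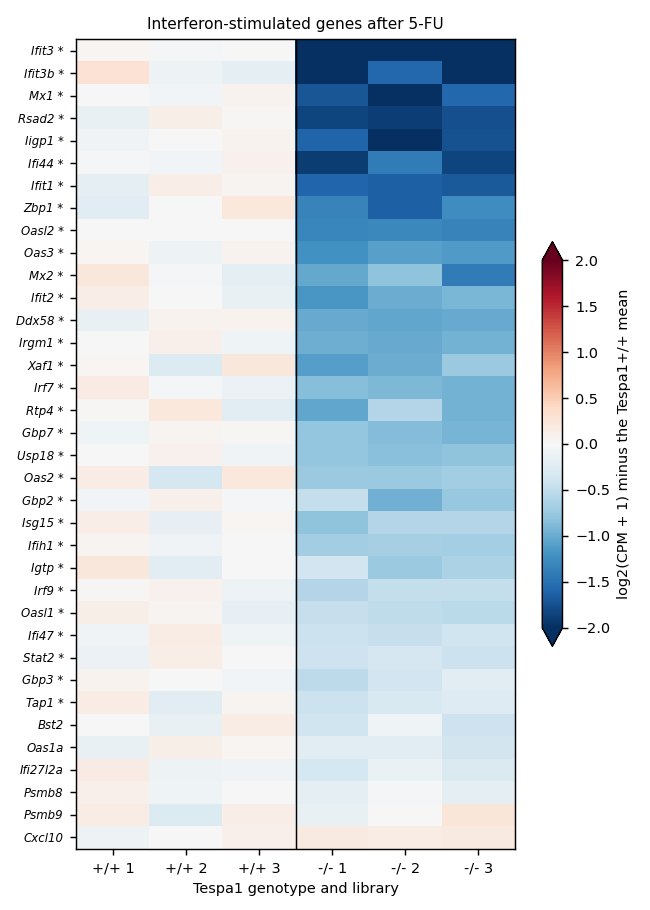
Levels of 36 of the 37 interferon-stimulated genes in each library after 5-FU, as log2(CPM + 1) minus the mean of the 3 Tespa1+/+ libraries (blue lower, red higher, colours saturate at 2). An asterisk marks an adjusted p below 0.05, and 30 of the genes drawn carry one. The 3 Tespa1-/- columns are blue from Ifit3 down to Tap1, and the last 6 rows are near white.

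Genes of mitosis rose together. All 40 had a positive log2 fold change and 32 passed the test, against 7.34% of all genes, with a median of 0.61. In the same libraries the summed primary granule and globin and red cell membrane lists went from at most 4005 and 348.5 CPM in Tespa1+/+ to at least 6238 and 1318 CPM in Tespa1-/-, and their part in the mitotic difference was not tested. Aurka, a spindle kinase, was at 27, 22.3 and 23 CPM in Tespa1+/+ and 49.3, 47.3 and 50.7 CPM in Tespa1-/- (log2 fold change 1.03, SE 0.11, adjusted p = 4.3e-04). Cdc25b, the phosphatase that activates CDK1 at entry into mitosis, went from 36.3, 28.1 and 32.3 CPM to 66.5, 63 and 66.5 CPM (log2 fold change 1.02, SE 0.11, adjusted p = 3.9e-04). Cdk1 itself went from 43.5, 44.6 and 43.8 CPM to 66.7, 71.4 and 63.4 CPM (log2 fold change 0.61, SE 0.09, adjusted p = 0.0016), and none of these 3 genes overlapped between the genotypes. Many mitotic promoters carry a cell cycle homology region (CHR, TTTGAA) and CCAAT boxes, through which they are repressed in quiescent cells and activated in G2. Cdk1, which heads the list, and Cdc20, of the anaphase-promoting machinery and chosen after its values were seen, show it in capitals in the following stretches, each ending before the RefSeq start; the gene models of the counts start further upstream, inside the stretches.
Cdk1: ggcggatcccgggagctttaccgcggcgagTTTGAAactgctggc
Cdc20: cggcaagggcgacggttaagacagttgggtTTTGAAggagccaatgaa

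These stretches lie at chr10:69352913-69352957 on the - strand (Cdk1) and chr4:118437344-118437391 on the - strand (Cdc20) of GRCm38.p6. Only genes whose promoter held TTTGAA could be shown, and the search gave no stretch for Aurka or Cdc25b. Of 32 mitotic genes with a promoter, 10 (31.2%) held TTTGAA and 25 (78.1%) held CCAAT on either strand, where 13.2% and 40.4% of the tested genes did.

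In untreated LSKs 1 of the 40 mitotic genes rose and the median was 0.03. The interaction was called for 24, all with the larger genotype effect after 5-FU, including Cdk1 (difference 0.63, SE 0.12, adjusted p = 0.0089) and Aurka (difference 0.87, SE 0.17, adjusted p = 0.011). Of 35 DNA replication genes 6 rose (15 at an unadjusted p below 0.05), with a median of 0.13: Cdc6, which loads the helicase, rose by 0.62 (SE 0.11, adjusted p = 0.0049), while Mcm2 had a log2 fold change of 0.13 (adjusted p = 0.27) and Pcna one of -0.03 (adjusted p = 0.86). Among G1 regulators 3 of 15 rose and 3 fell, against 7.34% and 5.78% of all genes. Ccne1 (cyclin E1) and E2f2 rose by 0.84 and 0.89 (SE 0.14 and 0.11), Cdk6 fell by 0.23 (SE 0.03, adjusted p = 0.0016), and Ccnd1 (cyclin D1) fell by 0.56 (adjusted p = 0.017) with its call lost in 4 of the 6 fits. Of 17 quiescence and CDK inhibitor genes 1 rose and 2 fell, against 7.34% and 5.78% of all genes, with a median of -0.12. Cdkn1a (p21) went from 91, 85.1 and 96.2 CPM to 51.5, 52.7 and 46.1 CPM (log2 fold change -0.86, SE 0.09, adjusted p = 2.7e-04). In untreated LSKs Cdkn1a fell further, by 1.34 (SE 0.07, adjusted p = 3.3e-05), and the effects differed by 0.49 (SE 0.11, adjusted p = 0.020). Cdkn2c (p18) rose from 10.8, 8.94 and 11.4 CPM to 23.1, 27.9 and 31.2 CPM (log2 fold change 1.40, SE 0.17, adjusted p = 7.5e-04).

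Nucleotide supply genes rose in 6 of 23 and 1 fell; with 1 library left out 4 to 6 rose, and 2 fell without the third Tespa1-/- library. Rrm2, the small subunit of ribonucleotide reductase, went from 82.1, 79.2 and 87.4 CPM to 145, 145 and 141 CPM (log2 fold change 0.79, SE 0.06, adjusted p = 7.7e-05). Tyms, the thymidylate synthase that the active form of 5-FU blocks, was at 32.2, 40 and 40.6 CPM against 37, 40.3 and 45.3 CPM and did not pass (log2 fold change 0.12, SE 0.13, adjusted p = 0.62). DNA repair genes rose in 6 of 27, against 7.34% of all genes, but in 1 without the second Tespa1+/+ or the first Tespa1-/- library and in at most 4 without any other 1. The p53 targets had 2 higher and 2 lower of 23, against 7.34% and 5.78% of all genes, and a median of 0.00, with Mdm2 at a log2 fold change of 0.13 (adjusted p = 0.52). Without replicate 1 or 2 of Tespa1+/+ or replicate 1 or 3 of Tespa1-/-, 0 of the p53 list were higher (2 at an unadjusted p below 0.05 and 2 by DESeq2 with all libraries). In the BCL2 family, Bcl2, which protects against apoptosis, fell from 154, 155 and 139 CPM to 95.3, 98.9 and 105 CPM (log2 fold change -0.58, SE 0.07, adjusted p = 8e-04), and Mcl1, which HSCs need to survive, by 0.31 (SE 0.04, adjusted p = 8.6e-04). Bax, which promotes apoptosis, rose by 0.67 (SE 0.18, adjusted p = 0.040) and Bcl2l11 (Bim) fell by 0.77 (SE 0.18, adjusted p = 0.022), and these 2 calls were lost in 5 and 4 of the 6 fits, that of Bax also with no filter on low counts (adjusted p = 0.052).

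Of 34 nuclear genes of the respiratory chain 11 rose, with a median of 0.28, among them Cox4i1 (log2 fold change 0.39, SE 0.07, adjusted p = 0.0082) and Ndufb3 (0.79, SE 0.16, adjusted p = 0.011), and with 1 library left out 4 to 10 of the 34 rose, the fewest without the second Tespa1-/- library. Of the 13 genes of the mitochondrial genome 8 fell, with a median of -0.21, such as mt-Co1, from 2878, 2857 and 2869 CPM to 2593, 2494 and 2523 CPM (log2 fold change -0.18, SE 0.02, adjusted p = 7.3e-04), and 8 fell in untreated LSKs as well. The NADPH oxidase and antioxidant list rose in 9 of 25. Cybb (gp91phox), the catalytic subunit of the phagocyte oxidase, went from 37.1, 36.6 and 26.9 CPM to 88.7, 83.1 and 86.1 CPM (log2 fold change 1.36, SE 0.13, adjusted p = 1.6e-04), and this subunit is itself a myeloid gene. Mt2, a metallothionein, rose by 2.44 (SE 0.31, adjusted p = 0.0010), and Sod1 had a log2 fold change of 0.14 (adjusted p = 0.19).

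Genes of the integrated stress and unfolded protein responses rose in 9 of 19, with a median of 0.32. Asns, the asparagine synthetase induced by ATF4, went from 9.31, 7.37 and 6.47 CPM to 20.5, 23.1 and 20.6 CPM (log2 fold change 1.47, SE 0.18, adjusted p = 8.2e-04), and Hspa5 (BiP), the chaperone of the endoplasmic reticulum, rose by 0.24 (SE 0.05, adjusted p = 0.0078). Atf4 had a log2 fold change of 0.09 (adjusted p = 0.45). With 1 library left out, 6 to 8 genes of the list rose. In glycolysis 7 of 24 rose and 2 fell; 4 of the list rose without the first Tespa1+/+ library, and 0 fell without the third Tespa1+/+ or the second Tespa1-/- library (2 by DESeq2 and 4 at an unadjusted p below 0.05 with all libraries). Hk3, a hexokinase of myeloid cells, rose by 0.69 (SE 0.09, adjusted p = 0.0010) and Ldha by 0.21 (SE 0.06, adjusted p = 0.039, lost in 5 of the 6 fits and, at adjusted p = 0.062 to 0.088, under 4 other settings). Ribosomal protein genes stayed near the background, with 6 of 76 higher, 5 lower and a median of -0.02, though Rps2 rose by 0.46 (SE 0.05, adjusted p = 2.8e-04). With 1 library left out, 2 to 5 of them rose, the fewest without the second Tespa1+/+ library, and 2 to 5 fell, the fewest without the first Tespa1+/+ or the second Tespa1-/- library. Lysosome and autophagy genes rose in 5 of 24 and fell in 2, and proteasome genes rose in 3 of 27 (8 by DESeq2), against 7.34% higher and 5.78% lower of all genes. Ribosome biogenesis genes rose in 2 of 25 and heat-shock genes in 1 of 11 (4 by DESeq2), and with 1 library left out 1 to 3 and 1 to 2 genes of these lists did. Of 23 cholesterol synthesis genes 2 fell, 1 without the second or the third Tespa1-/- library and 0 without any 1 of the other 4 libraries (2 by DESeq2 and 4 at an unadjusted p below 0.05 with all libraries).

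Early-response genes, which growth factor and stress signals induce within minutes, were lower in 14 of 22, with a median of -0.30. Rgs1, a regulator of G protein signalling, went from 209, 237 and 229 CPM to 101, 87 and 90.4 CPM (log2 fold change -1.28, SE 0.08, adjusted p = 1.2e-05), and Fosl2, of the AP-1 family, from 180, 180 and 185 CPM to 99.5, 98.7 and 117 CPM (log2 fold change -0.79, SE 0.08, adjusted p = 1.9e-04). Fos and Jun fell by 0.24 and 0.23 (SE 0.04 and 0.02, adjusted p = 0.0070 and 2.1e-04). In untreated LSKs 21 of the 22 fell, with a median of -0.79. The interaction was called for 11, in 10 of which the genotype effect after 5-FU was less negative, as in Fosl2 (difference 0.55, SE 0.09, adjusted p = 0.0028), and in Rgs1 more so (difference -0.50, SE 0.10, adjusted p = 0.012). Of 21 genes of ERK and NF-kB feedback 7 fell. The list holds inhibitors and also the NF-kB subunit genes Relb, Nfkb1 and Nfkb2, with Bcl3 and Birc3. Among the falls were Dusp4 by 1.22 (SE 0.16, adjusted p = 0.0013) and Dusp1 by 0.24 (SE 0.05, adjusted p = 0.011), while Nfkbia had a log2 fold change of -0.02 (adjusted p = 0.91). In untreated LSKs 15 of these 21 fell, with a median of -0.67, and the interaction was called for 8, in each of which the effect after 5-FU was less negative or more positive. Of 9 SOCS and PIM genes 1 rose and 1 fell, against 7.34% and 5.78% of all genes. Socs3, the feedback inhibitor of STAT3 signalling, fell by 0.57 (SE 0.07, adjusted p = 5.5e-04), and Pim1 had a log2 fold change of -0.08 (adjusted p = 0.26). The rise was that of Cish, whose call was lost in the single fit over all 12 libraries (log2 fold change 0.59, adjusted p = 0.067). With any 1 library left out, 0 of the 9 rose.

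**Figure D5:**
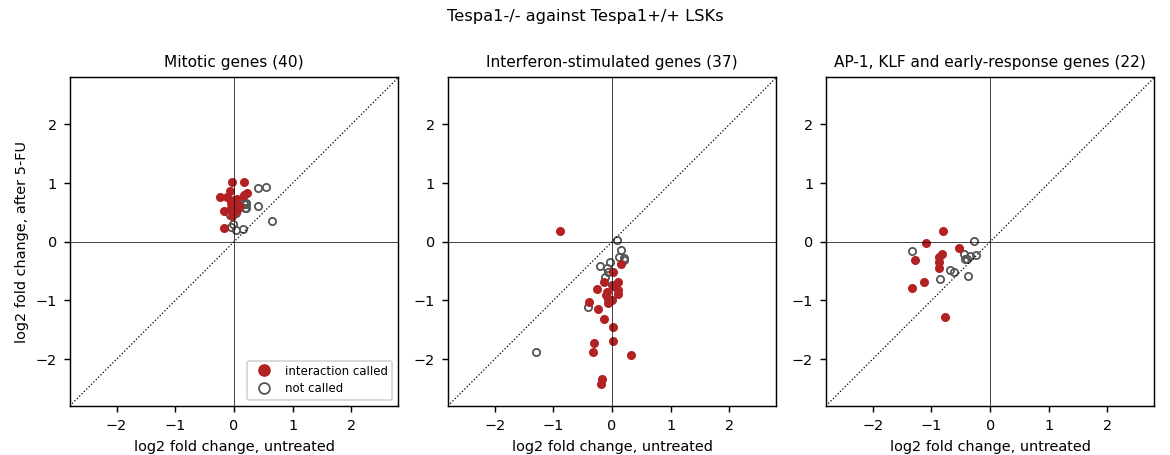
Log2 fold changes of Tespa1-/- against Tespa1+/+ LSKs for the members of 3 lists, untreated on the x axis and at day 9 after 5-FU on the y axis; the dotted line marks equal values. Filled red points are genes with an adjusted p below 0.05 for the interaction, 24 mitotic, 24 interferon-stimulated and 11 early-response genes. Mitotic genes lie above the line near an untreated value of 0, most interferon-stimulated genes below it, and most early-response genes above it with negative values on both axes.

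Tespa1 is known as a partner of the IP3 receptor in T cell receptor signalling, so genes of calcium and IP3 signalling were examined. Of 30, 5 rose and 3 fell, against 7.34% and 5.78% of all genes, with a median of 0.01. The rises, of which 4 are named after their values were seen, included Stim2 (0.42), a calcium sensor of the endoplasmic reticulum, Calm3 (0.35), a calmodulin gene, and the calcium pump genes Atp2a2 (0.33) and Atp2a3 (0.36), all as log2 fold changes; the call of Stim2 was lost in 5 of the 6 fits without 1 library. Plcg1, the phospholipase that makes IP3, went from 153, 162 and 150 CPM to 128, 96.7 and 113 CPM (log2 fold change -0.46, SE 0.10, adjusted p = 0.012). Itpr1, an IP3 receptor, was at 260, 268 and 290 CPM against 239, 244 and 232 CPM and missed the threshold (adjusted p = 0.055). Atp2b4, a calcium pump of the plasma membrane, fell by 0.53 (SE 0.12, adjusted p = 0.017, lost in 2 of the 6 fits). The list had 1 lower gene without the second Tespa1+/+ library, and 3 higher ones without replicate 1 or 3 of Tespa1+/+ or replicate 1 or 2 of Tespa1-/-. Of 23 cytokine receptor genes 3 rose and 2 fell, against 7.34% higher and 5.78% lower of all genes. Csf2ra and Csf2rb, the chains of the GM-CSF receptor, rose by 1.20 (SE 0.11, adjusted p = 1.6e-04) and 0.42 (SE 0.06, adjusted p = 0.0024), and Il1r1, the interleukin-1 receptor, fell from 37.6, 42.5 and 42.6 CPM to 21.5, 21.8 and 19.7 CPM (log2 fold change -0.96, SE 0.11, adjusted p = 6.7e-04). Csf3r, the G-CSF receptor, had a log2 fold change of -0.22 (adjusted p = 0.071). In the TGF-beta and BMP pathway 4 of 17 fell, including the inhibitor Smad7 by 0.90 (SE 0.08, adjusted p = 1.7e-04) and Ltbp3, which anchors latent TGF-beta, by 1.10 (SE 0.10, adjusted p = 1.5e-04).

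In adhesion and homing, Itgb2 (CD18), the leukocyte integrin chain, rose from 21.3, 35.9 and 37.7 CPM to 90.9, 105 and 91.6 CPM (log2 fold change 1.60, SE 0.19, adjusted p = 6.7e-04). Cxcr4, the receptor that holds HSCs in the BM, was at 59.2, 69.9 and 63.4 CPM against 68.8, 69.9 and 70.6 CPM (adjusted p = 0.42). In all, 3 of 24 genes of this list rose and 6 fell, against 7.34% and 5.78% of all genes. There were 2 to 4 lower genes in the fits without 1 library, the fewest without the second Tespa1+/+ or the third Tespa1-/- one, and 1 higher gene without replicate 2 of Tespa1+/+ or replicate 2 or 3 of Tespa1-/-. Of 11 tested imprinted genes 1 rose (Igf2r, log2 fold change 0.51, adjusted p = 0.013) and 2 fell, against 7.34% and 5.78% of all genes. Of the imprinted genes 0 fell without the first or the third Tespa1+/+ library, 0 rose without the first Tespa1-/- library, and 0 passed in either direction without the second Tespa1-/- library (with all libraries, 1 higher and 3 lower by DESeq2 and as many by an unadjusted p below 0.05).

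Lymphoid genes were called higher in part. Of 19 B lymphoid genes 6 rose, with a median of 0.22, and 2 to 4 with 1 library left out, the fewest without the third Tespa1-/- library. Ebf1, the factor that commits cells to the B lineage, was at 113, 113 and 110 CPM against 109, 120 and 117 CPM (adjusted p = 0.77), whereas Cd22, an inhibitory receptor of B cells, went from 0.75, 0.858 and 1.38 CPM to 4.61, 5.7 and 5.3 CPM (log2 fold change 2.38, SE 0.35, adjusted p = 0.0022). The call of Cd22 was lost in the single fit over all 12 libraries (adjusted p = 0.085). Of 11 plasma cell genes 4 rose. Sdc1 (CD138) of the same list went the other way, at 14, 18.5 and 17.7 CPM in Tespa1+/+ and 13, 9.88 and 8.77 CPM in Tespa1-/-, and did not pass (log2 fold change -0.67, SE 0.20, adjusted p = 0.061). Igha, the constant region of IgA, was at 8.96, 8.82 and 8.18 CPM against 38.3, 38.4 and 41.6 CPM (log2 fold change 2.19, SE 0.13, adjusted p = 9e-06), and Jchain, which joins IgA and IgM, rose by 1.58 (SE 0.25, adjusted p = 0.0031). In untreated LSKs Jchain and the kappa constant gene Igkc were lower in Tespa1-/- (log2 fold changes -1.27 and -1.18), and their genotype effects differed between the treatments by 2.86 and 2.83 (SE 0.38 and 0.18, adjusted p = 7.5e-04 and 1.5e-06). Variable segments went both ways, with 7 of 16 heavy-chain segments higher and 3 lower, and 8 of 12 kappa segments higher and 3 lower. They are a multigene family with shared reads, and a few clones can set them.

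Of 22 genes of T, NK and innate lymphoid cells, 4 rose, with a median of 0.74. Gzma, a granzyme of cytotoxic cells, had no count in Tespa1+/+ and 11, 9.49 and 12.2 CPM in Tespa1-/-, at least 90.5-fold higher, and Il2rb, a chain of the IL-2 and IL-15 receptors, went from 1.42, 0.975 and 1.42 CPM to 12.7, 17 and 10.2 CPM (log2 fold change 3.39, SE 0.29, adjusted p = 1e-04). Without the first Tespa1-/- library 2 of them passed. MHC class II genes had 3 of 11 higher and 1 lower, against 7.34% and 5.78% of all genes. H2-Aa rose by 0.84 (SE 0.18, adjusted p = 0.013), H2-Ob, which dampens peptide loading, fell by 0.87 (SE 0.18, adjusted p = 0.011), and Cd74, the invariant chain, was at 36.1, 40.2 and 28.6 CPM against 35.3, 59.5 and 44.9 CPM (adjusted p = 0.21). In the class II list 1 gene was higher without the third Tespa1+/+ library or without any 1 Tespa1-/- library, and the fall of H2-Ob lost its call without the first Tespa1-/- library.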

How the data were processed

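LSKs of Tespa1+/+ and Tespa1-/- mice, untreated or at day 9 after 5-FU, were profiled by stranded poly-A RNA-seq, 3 libraries a group. The authors deposited counts of reads per gene for 53465 genes, with FPKM values the authors derived from the same counts, which were used only to compare levels between genes. The submitters' processing notes name CASAVA 1.8, HISAT2, StringTie and edgeR on GRCm38, without their roles, and the use of strand in counting is not given in the sources used here. Samples were grouped by their labels.

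The main test was the quasi-likelihood test of edgeR 4.0.16 in R 4.3.3 (filterByExpr with a minimum count of 10, TMM factors, glmQLFit and glmQLFTest, Benjamini-Hochberg adjustment) on the 6 libraries after 5-FU, with genotype as the only factor. The same test was run on the untreated libraries, and the interaction on all 12. CPM use the TMM factors of the 6 libraries. Where no library of a group exceeded 3 counts, the fold is a lower bound, set against 3 counts per library averaged over the group. Replicates differed by more than sampling noise (median chi-square per gene 4.13 to 5.30, where sampling gives 0.455). Separate mice are not stated, so p-values measure the spread between these libraries. On simulated counts with gene-wise dispersions the share of false calls was on average somewhat above the nominal level in edgeR and well above it in DESeq2, and with dispersions on the trend it was below that level in edgeR.

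The 52 lists (1036 genes, 1035 of them in the table), the members and the tests were chosen with earlier results of these data known. Named genes are the 12 largest rises and falls by log2 of (mean CPM + 1) with at least 5 CPM in the higher group and no overlap, the first 2 members and the 2 largest called changes (at least 1 CPM, no overlap) of each list, Tespa1, and the gate and lineage antigen genes. Predicted genes and immunoglobulin and T cell receptor segments were left out of the first set. Not every gene the rule names is printed, and some are not reported here. Genes printed outside it were chosen after their values were seen. The alternatives were DESeq2 1.42.0, RLE factors, library totals, no filter, a mean of at least 1 CPM, a single fit over all 12 libraries, a block for the replicate number, other call thresholds and each library left out. Summaries and figures were made in Python 3.11 with matplotlib 3.10.9, pandas 2.3.3, SciPy 1.17.1 and NumPy 2.4.6.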

Additional observations from a re-analysis of the deposited data

Results flagged for a closer look

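A difference of the genotype effect between untreated LSKs and LSKs after 5-FU was tested, by the interaction term in edgeR, with p-values adjusted (Benjamini-Hochberg) over 18696 genes, in the 25 genes that are the 12 largest rises, the 12 largest falls and Tespa1. Of these, 23 had more than 3 counts in an untreated library, and 16 passed. The values that follow are log2 differences, the effect after 5-FU minus that in untreated LSKs.

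Among the rises, the difference was 9.80 for Prg2 (SE 1.02, adjusted p = 1.2e-04), 5.20 for S100a9, 7.28 for S100a8, 7.10 for Slc4a1 (SE 1.63, adjusted p = 0.024), 12.69 for Fcnb and 4.66 for Hba-a1 (SE 0.74, adjusted p = 0.0024). Fcnb had no count in Tespa1+/+ after 5-FU, so that its difference depends on the prior count of the fit. The mean levels of Prg2, S100a9, S100a8, Slc4a1 and Fcnb in the untreated groups were 0.132 to 1.11 CPM, close to the limit of detection. Epx did not pass and had no count in untreated Tespa1+/+ LSKs. It was already higher in untreated Tespa1-/- LSKs (log2 fold change 6.83, SE 1.25, adjusted p = 0.032), at a mean of 0.597 CPM.

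Among the falls, the difference was -12.69 for Rprl3, which had 2 counts or fewer in every treated Tespa1-/- library and so also rests on the prior count. It was -2.23 for Ifit3, -2.17 for Ifit3b, -2.76 for Tlr7, -1.73 for Sema3d, -2.25 for Mx1, -1.56 for Iigp1, -2.02 for Phf11d and -1.54 for Ifi213. None of these 9 falls had passed the test in untreated LSKs.

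For Tespa1 the difference was -1.05 (SE 0.15, adjusted p = 0.0010), with untreated log2 fold change -0.42 (SE 0.09, adjusted p = 0.032).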

How the results depend on the processing

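The counts of 1265 higher and 996 lower genes moved by over 1.5 times without the second Tespa1-/- library after 5-FU (839 higher) and with a fold change above 1.5 required as well (681 and 523). Leaving out 1 library at a time gave 839 to 1009 higher and 665 to 714 lower genes and 629 to 748 interactions in place of 936, DESeq2 1535 interactions. The other settings kept these counts within 1.5 times. Library totals without TMM gave 1118 higher and 1145 lower genes, so the share of higher calls fell to near parity. The Tespa1 log2 fold change kept its call throughout. Same-numbered libraries did not deviate together (r = -0.007, 0.029 and 0.002), and the replicate block gave 970 higher and 736 lower genes and 742 interactions. Of 152 called named genes, 33 lost the call without some library, 16 under another setting, and 0 of 2570 refits turned a called direction. List medians changed sign for 7 lists, none over 0.16 in size: MHC class II, adhesion, calcium, cytokine receptor, dendritic cell, nucleotide and p53 genes. The causes were not tested. At 3 counts as the limit, levels under 0.109 CPM, taken over library totals without TMM, could not be detected in any library after 5-FU.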
